A study of Mus musculus with 8 samples.

Results

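Rps19bp1 and the 7 sirtuin genes, Sirt1 to Sirt7, were taken by symbol from a table of 52778 features measured in embryonic mouse heart. All 8 genes were found and all 8 passed the filter on low expression, among 15545 genes tested. RNA was sequenced from ventricular heart at embryonic day 11.5 in 4 control libraries and 4 libraries homozygous for Atf4(del7), a CRISPR/Cas9 allele that lacks 7 bases in exon 3 of Atf4 and shifts its reading frame. Controls were C57BL/6 WT, and the labels call the 4 libraries of a genotype biological replicates without saying whether a library is 1 embryo or a pool. The mutants were a global knockout, so the allele was present in every cell type of the tissue, and the deletion left the polyadenylation signal of Atf4 in place. The labels disagree in places: the genotype field reads C57BL/6 WT for all 8 samples, and the sample protocol describes neurons of the cortex in culture with depletion of rRNA, where the design text gives ventricles and a stranded mRNA kit. Groups were taken from the sample titles. Expression is in TPM (a transcript abundance scaled for length and for the total of its library), which keeps no read depth, so errors here are SDs over the 4 libraries of a genotype.

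Sirtuins are deacylases that use NAD+ as a co-substrate and so tie the removal of acetyl and other acyl groups from proteins to the metabolic state of the cell. SIRT1, SIRT6 and SIRT7 act mainly in the nucleus, SIRT2 mainly in the cytosol, and SIRT3, SIRT4 and SIRT5 in mitochondria. Rps19bp1 encodes AROS, a small nucleolar protein that binds the ribosomal protein RPS19 and was described as a direct activator of SIRT1 towards p53. The gene is the next one downstream of Atf4.

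None of the 8 genes passed the test between genotypes. Among the members 0 had an adjusted p below 0.05 in limma, a linear model fitted to log2(TPM + 1) of all 15545 genes with Benjamini-Hochberg adjustment, against 0.0386% of all tested genes. At an unadjusted p below 0.05 the members numbered 0 as well, against 6.10% of all tested genes. In none of the 8 did the 4 mutant values lie wholly above or below the 4 control values, against 3.68% of all tested genes. The log2 fold changes, mutant against control, ran from -0.20 for Sirt5 to 0.14 for Sirt7, 3 above zero and 5 below, with a median of -0.014 beside -0.0033 over all tested genes. The smallest adjusted p among them was 0.821.

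**Figure D1:**
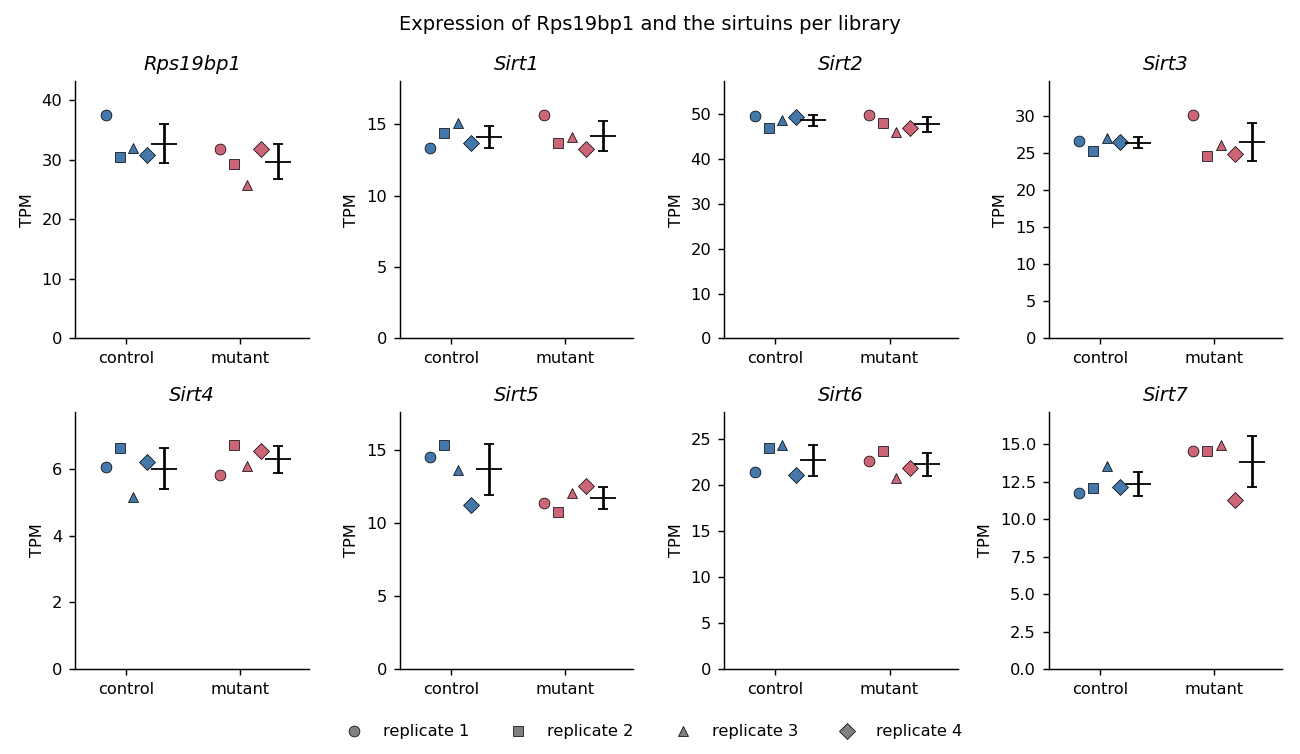
TPM of Rps19bp1 and Sirt1 to Sirt7 in each library, with linear axes from 0. Symbols are the 4 control (blue) and 4 mutant (red) libraries, and bars give the group mean and SD. The groups overlap in every panel, with Sirt5 in controls at 11.3 to 15.3 TPM and in mutants at 10.8 to 12.5 TPM.

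The targeted gene was examined first. Atf4 was measured at 105, 121, 115 and 105 TPM in the controls and at 166, 164, 185 and 148 TPM in the mutants. The mutant transcript was thus higher in 4 of 4 libraries with no overlap, 0.57 higher on the log2 scale (95% interval 0.41 to 0.72, limma adjusted p = 0.0430), a call lost in 12 of 17 alternatives. The deletion is far shorter than the transcript, so an RNA level cannot show whether protein was lost. The groups differ at the targeted gene, which by itself does not show which group carries the deletion.

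Rps19bp1 is a compact gene of 4 exons with a coding sequence of 429 bases in its single protein-coding GENCODE M21 transcript, on the minus strand of chromosome 15 (GRCm38, bases 80260614 to 80264306). Atf4 is on the plus strand, so the 2 genes run towards each other and their ends are 3068 bases apart. In the controls Rps19bp1 was measured at 37.6, 30.5, 32.1 and 30.8 TPM. In the mutants it was measured at 31.9, 29.3, 25.8 and 31.9 TPM. Control replicate 1 was the highest and mutant replicate 3 the lowest of the 8, and the other 6 libraries lay between 29.3 and 32.1 TPM with both genotypes mixed. All 4 mutants were below the control mean, and 2 were below the lowest control. The log2 fold change was -0.14 (SE 0.084, limma adjusted p = 0.865, two-sided exact permutation p = 0.229). Its 95% interval, -0.32 to 0.055, corresponds to a fold of 0.798 to 1.04, so on this scale a small reduction was not separable from no change, while a fall to below 0.798-fold lay outside the interval. Without control replicate 1 the log2 fold change was -0.069, and without mutant replicate 3 it was -0.071.

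**Figure D2:**
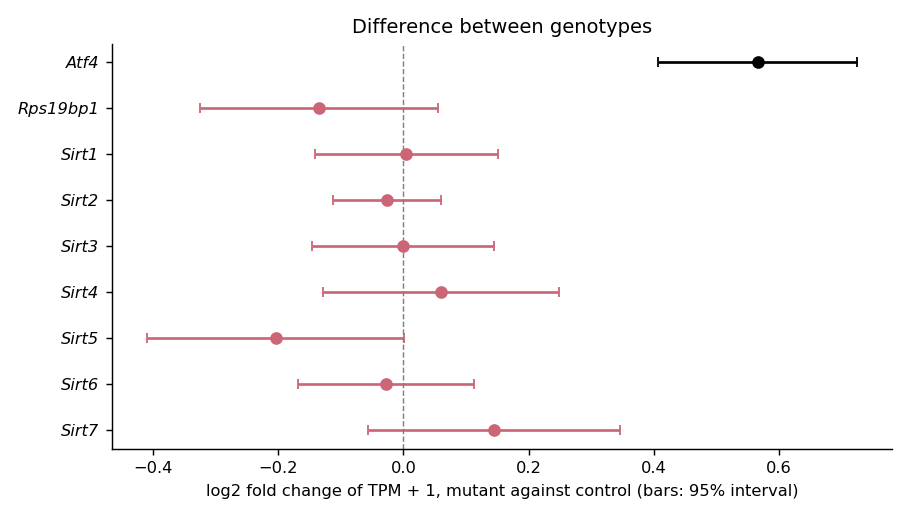
Log2 fold change of TPM + 1 (mutant against control) for Atf4, Rps19bp1 and the 7 sirtuins, with 95% intervals from limma. The interval of Atf4, 0.41 to 0.72, lies above 0, and the intervals of the other 8 genes include 0.

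The bases directly upstream of Rps19bp1 and of Sirt1, the activator and its reported target, are shown because ATF4, with C/EBP partners, binds a composite element with the core TGATGNAA. Both are the 250 bases before the RefSeq start on GRCm38.p6, on the minus strand, at chr15:80264307-80264556 for Rps19bp1 and chr10:63339036-63339285 for Sirt1, written 5′ to 3′. Capitals mark matches on either strand to GGGCGG (the GC box) and CACGTG (the E-box).
Rps19bp1: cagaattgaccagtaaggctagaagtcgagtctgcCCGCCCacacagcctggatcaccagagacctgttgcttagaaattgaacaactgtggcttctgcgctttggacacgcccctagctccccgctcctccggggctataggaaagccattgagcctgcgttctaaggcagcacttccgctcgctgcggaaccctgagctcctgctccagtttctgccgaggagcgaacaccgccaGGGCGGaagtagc
Sirt1: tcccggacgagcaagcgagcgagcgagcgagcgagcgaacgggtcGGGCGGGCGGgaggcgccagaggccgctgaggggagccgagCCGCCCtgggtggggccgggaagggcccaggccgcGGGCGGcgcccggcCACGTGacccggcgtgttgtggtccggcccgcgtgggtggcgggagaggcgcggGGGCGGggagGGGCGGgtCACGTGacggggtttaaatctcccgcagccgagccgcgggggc
Neither window holds TGATGNAA or the CREB-type palindrome TGACGTCA on either strand. The same was true of all 10 upstream windows listed for the 8 members, where Sirt3 and Sirt6 have 2 starts each. The Sirt4 window (bases 115484298 to 115484547) lies inside the gene as placed below. Those of Sirt5 and Sirt6 lie wholly or partly inside their genes. The bases before the gene starts given below were thus not fully searched for Sirt4, Sirt5 and Sirt6. In the 32851 upstream windows of the table, TGATGNAA was found in 3.45% and TGACGTCA in 1.55%. Rps19bp1 holds 2 GC boxes, which start 215 and 13 bases before the transcript start. Sirt1 holds 6 GC boxes, of which a pair overlaps, and 2 E-boxes, which start 115 and 43 bases before the transcript start. GC boxes were present in 7 of the 10 member windows and in 32.7% of all windows, and E-boxes in 1 of the 10, that of Sirt1, and in 6.02% of all windows. CCGGAA, the core bound by ETS factors, was found in 4 of the 10 and in 12.0% of all windows, and CCAAT in 3 of the 10 and in 33.8%. The GC content was 79.2% for Sirt1 and 58.8% for Rps19bp1, against a median of 52.4% over all windows. These are matches of letters, and binding was not measured.

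Around Rps19bp1, 8 other features are listed within 100000 bases, and 4 of them were expressed enough to be tested. Mief1, which encodes a mitochondrial fission regulator and ends 7241 bases from Rps19bp1, held 18.2 ± 0.961 TPM in controls and 18.2 ± 1.25 TPM in mutants (SD, n = 4 each). Tab1, for a partner of the kinase TAK1, held 26.1 ± 1.67 and 24.3 ± 1.65 TPM, and its log2 fold change of -0.099 (adjusted p = 0.865) rested on overlapping groups. Mgat3, for an N-glycan branching enzyme, had a log2 fold change of 0.31 with an SE of 0.31 (adjusted p = 0.929). Atf4 was the only one of these neighbours past the threshold. The other 4 features, Cacna1i and the predicted genes Gm46521, Gm8375 and Gm31319, reached at most 0.0535 TPM in any library. No listed feature overlaps Rps19bp1.

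**Figure D3:**
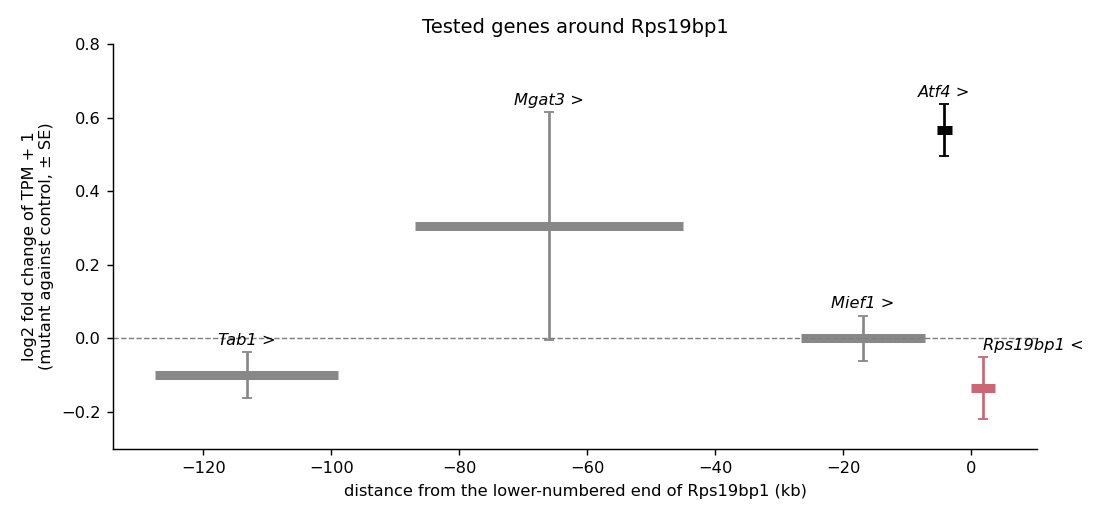
Tested genes around Rps19bp1, drawn to scale by distance in kilobases from its lower-numbered end, at the height of their log2 fold change (mutant against control, ± SE). Arrowheads beside the names give the direction of transcription. Atf4 is at 0.57 and Rps19bp1 at -0.14, 3068 bases apart.

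Sirt1 (chromosome 10, bases 63319005 to 63339035, minus strand) encodes the nuclear deacetylase of p53, FOXO factors and histones, whose loss in mice is known to impair heart development. It was measured at 13.4, 14.4, 15.1 and 13.7 TPM in the controls and at 15.7, 13.7, 14.1 and 13.3 TPM in the mutants. The highest and the lowest value were both in mutants, so the control range lay inside the mutant range. Sirt1 had a log2 fold change of 0.0047 (95% interval -0.14 to 0.15, limma adjusted p = 0.998). In fold, the interval runs from 0.907 to 1.11. No other listed feature overlaps Sirt1.

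Sirt2 (chromosome 7, bases 28766752 to 28788665, plus strand), for the mainly cytosolic enzyme that deacetylates alpha-tubulin, was the most abundant and the most even member. The controls held 49.6, 46.9, 48.7 and 49.5 TPM and the mutants 49.9, 48.1, 46.0 and 47.0 TPM, a coefficient of variation of 3.03% over the 8 libraries. Its groups overlapped almost fully. The log2 fold change was -0.026 (95% interval -0.11 to 0.060, limma adjusted p = 0.955), the narrowest interval of the 8. Nfkbib, for an inhibitor of NF-kappa-B that starts 107 bases away on the other strand, was 0.10 higher in mutants on the log2 scale (adjusted p = 0.858).

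Sirt6 (chromosome 10, bases 81621787 to 81627792, minus strand), for a chromatin enzyme of telomeres, DNA repair and glycolytic genes, held 21.4, 24.0, 24.3 and 21.1 TPM in controls and 22.6, 23.7, 20.8 and 21.9 TPM in mutants. The groups overlapped, at a log2 fold change of -0.028 (95% interval -0.17 to 0.11, limma adjusted p = 0.973). Ankrd24, which starts 28 bases away on the other strand, held 8.42 ± 2.57 TPM in controls and 7.99 ± 0.460 TPM in mutants (SD, n = 4 each).

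Sirt7 (chromosome 11, bases 120618371 to 120625014, minus strand) encodes the nucleolar sirtuin known as an activator of RNA polymerase I transcription. It was measured at 11.7, 12.1, 13.5 and 12.1 TPM in the controls. In the mutants it was measured at 14.5, 14.6, 14.9 and 11.3 TPM. Thus 3 mutants were above every control and mutant replicate 4 was below every control. The log2 fold change was 0.14 (SE 0.090, 95% interval -0.057 to 0.35, limma adjusted p = 0.865, two-sided exact permutation p = 0.143). Without mutant replicate 4, picked for its value, it was 0.23, with an unadjusted p of 0.00515 and an adjusted p of 0.841 in limma. With any other library left out it was 0.11 to 0.19, with an unadjusted limma p of 0.0859 to 0.298. The next gene upstream, Mafg, ends 102 bases from the start of Sirt7 on the same strand. Mafg held 16.6 ± 1.44 TPM in controls and 18.0 ± 2.22 TPM in mutants (SD, n = 4 each). It differed by 0.10 on the log2 scale (adjusted p = 0.923). Mir6936 lies within Sirt7 on the same strand over 54 bases, so its reads cannot be told apart from those of Sirt7.

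Of the mitochondrial sirtuins, Sirt5 had the largest difference of the 8 members. It encodes the enzyme that removes succinyl, malonyl and glutaryl groups (chromosome 13, bases 43365389 to 43395203, plus strand). The controls held 14.6, 15.3, 13.7 and 11.3 TPM. The mutants held 11.4, 10.8, 12.1 and 12.5 TPM. In 3 controls the level was above every mutant, while control replicate 4 fell inside the mutant range, and all 4 mutants were below the control mean. The log2 fold change was -0.20 (SE 0.091, 95% interval -0.41 to 0.0015, fold 0.753 to 1.00). The unadjusted limma p was 0.0514 and the adjusted p 0.821, with a two-sided exact permutation p of 0.114, so the difference did not pass. Among all tested genes 9.80% had a larger change in either direction. Without control replicate 4, picked for its value, the log2 fold change was -0.29 (unadjusted p of 0.00316, adjusted p of 0.551 in limma). With any other library left out it was -0.23 to -0.15, with an unadjusted limma p of 0.0452 to 0.142. No other listed feature overlaps Sirt5.

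Sirt3 (chromosome 7, bases 140863663 to 140882309, minus strand), for the main mitochondrial deacetylase, held 26.7, 25.3, 27.1 and 26.6 TPM in controls and 30.3, 24.7, 26.1 and 24.9 TPM in mutants. Mutant replicate 1 was the highest of the 8, and 2 mutants were below every control. For Sirt3 the log2 fold change was -0.0011 (95% interval -0.15 to 0.14, limma adjusted p = 0.999). Sirt3 shares 69 bases with the end of Ric8a on the other strand, and Psmd13, for a proteasome subunit, starts 84 bases upstream. Neither of these passed the threshold, at log2 fold changes of -0.076 for Ric8a and -0.020 for Psmd13.

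Sirt4 (chromosome 5, bases 115478006 to 115490264, minus strand), for a mitochondrial lipoamidase and ADP-ribosyltransferase, was the least abundant member. The controls held 6.04, 6.61, 5.14 and 6.21 TPM and the mutants 5.82, 6.69, 6.09 and 6.53 TPM. Its groups overlapped, at a log2 fold change of 0.060 (95% interval -0.13 to 0.25, limma adjusted p = 0.953). The 3 predicted genes that overlap Sirt4, Gm42007, Gm24265 and Gm24407, are on the other strand and reached at most 1.73 TPM.

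Over all 8 libraries the level in TPM fell in the order Sirt2, Rps19bp1, Sirt3, Sirt6, Sirt1, Sirt7, Sirt5 and Sirt4. The ranges of neighbours in this order were separate for Sirt2 and Rps19bp1 (ratio of means 1.54), Sirt3 and Sirt6 (1.18), Sirt6 and Sirt1 (1.59) and Sirt5 and Sirt4 (2.07). They overlapped for Rps19bp1 and Sirt3, for Sirt1 and Sirt7, and for Sirt7 and Sirt5, where Sirt7 was the higher in 4 of 8 libraries. Sirt2 was above 80.1% of tested genes in TPM, and Sirt4 above 29.0%. The summed TPM of the 7 sirtuins was 141 to 148 in the controls and 137 to 150 in the mutants, of which Sirt2 made up 33.8% ± 1.31 and 33.5% ± 0.626 (SD, n = 4 each). Sirt1, the reported target of AROS, made up 9.81% ± 0.385 and 9.95% ± 0.388. The transcript of the activator was more abundant than that of Sirt1 in every library.

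Whether Rps19bp1 and a sirtuin rose and fell together from library to library was tested over the 8 libraries. The test was exact two-sided permutation over all 40320 pairings, with adjustment over 7 relations. Both genotypes were pooled, so a difference between group means also enters each r and rho. For Sirt1 the Pearson r was -0.13 (exact permutation p = 0.757, adjusted p = 0.867) and Spearman's rho -0.19 (exact permutation p = 0.665, adjusted p = 0.665). For Sirt2 the r was 0.68 (exact permutation p = 0.0518, adjusted p = 0.353) and rho 0.62 (exact permutation p = 0.115, adjusted p = 0.344). For Sirt7 the r was -0.60 (exact permutation p = 0.101, adjusted p = 0.353) and rho -0.67 (exact permutation p = 0.0831, adjusted p = 0.344). The other 4 had an r between -0.21 and 0.45 and a rho between -0.57 and 0.52, with adjusted p of at least 0.344. Without the libraries farthest from the median of Rps19bp1, control replicate 1 and mutant replicate 3, the r became 0.44 for Sirt1, 0.21 for Sirt2 and -0.22 for Sirt7 (exact permutation p = 0.367, 0.717 and 0.722, n = 6). For Sirt3 the r rose to 0.55 and for Sirt4 it moved to -0.67 (exact permutation p = 0.246 and 0.135, n = 6). It was 0.27 for Sirt5 and -0.18 for Sirt6 (exact permutation p = 0.597 and 0.757, n = 6). The r for Sirt2 and Sirt7 was thus weaker without those libraries. Leaving them out also narrows the range of Rps19bp1, so whether the values rested on them cannot be told. None of the 7 relations passed. With median-of-ratios scaling Sirt7 had an r of -0.67 over all 8 libraries (exact permutation p = 0.0455, adjusted p = 0.284). With group means subtracted the r for Sirt7 was -0.47 (permutation p = 0.248, adjusted p = 0.867). That p is not exact, because centred values cannot be exchanged freely between genotypes. In this setting the r was -0.13 for Sirt1, 0.63 for Sirt2 and 0.27 for Sirt3. It was -0.074 for Sirt4, 0.20 for Sirt5 and -0.022 for Sirt6.

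**Figure D4:**
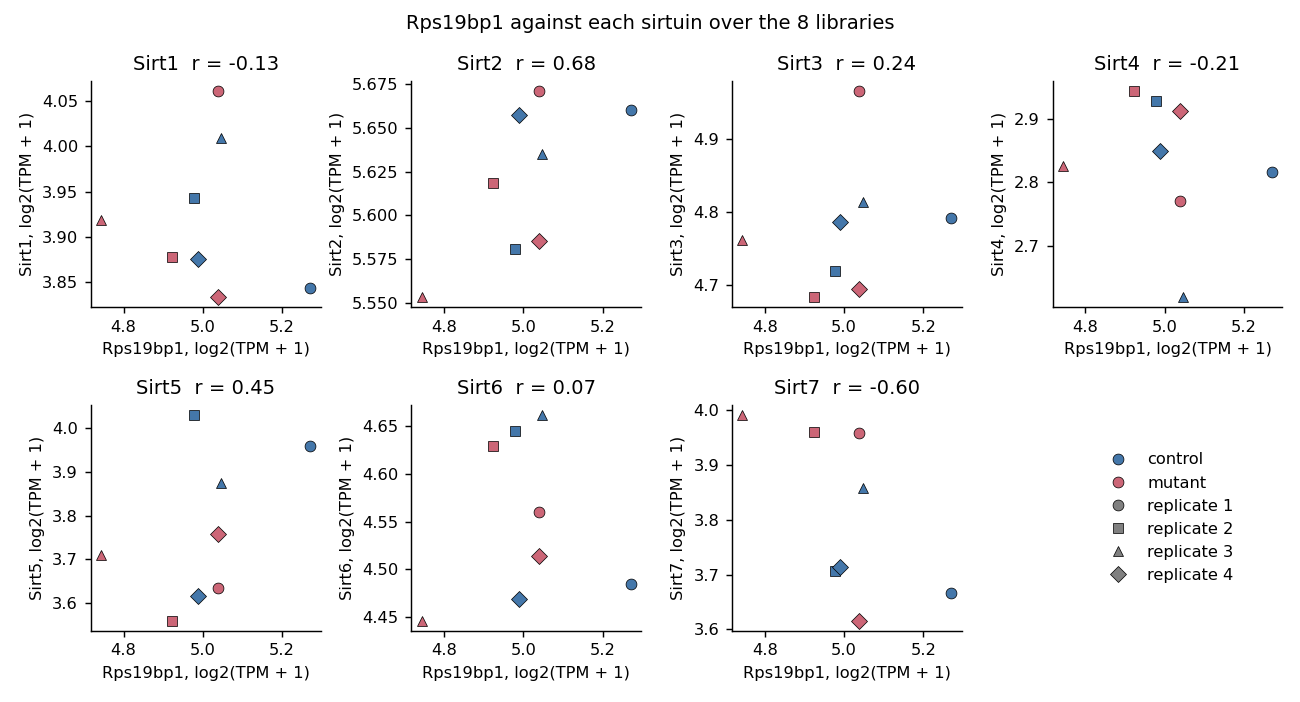
Rps19bp1 (x axis) against each sirtuin (y axis) in log2(TPM + 1), a point per library, blue for control and red for mutant. The lone points at both ends of each x axis are control replicate 1 and mutant replicate 3, and r ranges from -0.60 for Sirt7 to 0.68 for Sirt2.

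By the same measure the genes closest to Rps19bp1 among 11619 genes with a mean of at least 5 TPM were Wrap73 (r = 0.96), Ogfr (r = 0.96) and Mrpl13 (r = 0.94). For Sirt1 they were Cog2 (r = 0.95), Mrip-ps (r = 0.93) and Vezt (r = 0.92). With 8 libraries and so many genes, such values are a description of likeness only, picked as the highest. An r above 0.9 was reached by 24 genes for Rps19bp1 and by 12 for Sirt1, and none of the 6 named genes passed the test between genotypes.

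Genes that supply or compete for NAD+ were then examined. Of 20 genes of NAD+ synthesis and salvage, 14 were tested and 0 passed in either direction, with a median log2 fold change of 0.025. Nampt, for the rate-limiting enzyme of NAD+ salvage from nicotinamide, was measured at 19.2, 18.6, 18.3 and 20.2 TPM in the controls and at 21.9, 22.2, 23.1 and 22.6 TPM in the mutants. Every mutant was above every control, which 1.63% of all tested genes show. The log2 fold change of Nampt was 0.22 (SE 0.046, unadjusted p of 0.000803, limma adjusted p = 0.499), so it did not pass over all genes. Nadk2, for the mitochondrial NAD kinase, held 56.6 ± 2.11 and 60.2 ± 3.28 TPM (adjusted p = 0.845). Of the kynurenine route to NAD+, Kmo, Kynu, Haao, Tdo2 and Ido1 were too low to be tested, while Afmid, for kynurenine formamidase, was at 0.055 and Qprt, for the enzyme that uses quinolinate, at 0.016 in log2 fold change (adjusted p = 0.973 and 0.995).

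Of 18 NAD+ consumers other than sirtuins 15 were tested and 0 passed, with a median of -0.013. In 3 of the 15 (Nnmt, Cd38 and Parp12) every mutant was below every control, which 2.05% of all tested genes show. Nnmt, for nicotinamide N-methyltransferase, had the smallest p of the list at a low level, with 1.71, 1.39, 1.59 and 1.22 TPM in controls and 0.810, 0.912, 0.503 and 0.109 TPM in mutants. It differed by -0.67 on the log2(TPM + 1) scale (SE 0.18, unadjusted p of 0.00370, limma adjusted p = 0.720), and it was named, like Parp12, after its values were seen. Cd38, for an NAD+ hydrolase of the cell surface, held 18.5, 19.0, 19.4 and 20.1 TPM in controls and 17.3, 17.8, 18.4 and 16.0 TPM in mutants, every mutant below every control, at a log2 fold change of -0.14 (limma adjusted p = 0.807). Parp12, a mono-ADP-ribosyltransferase, held 7.06 to 7.66 TPM in controls and 6.57 to 6.94 TPM in mutants (log2 fold change -0.12, adjusted p = 0.841). Parp8, of the same family, was 0.25 higher on the log2 scale (adjusted p = 0.809) with overlapping groups. Parp1, the main poly(ADP-ribose) polymerase, chosen here after its values were seen, held 108 to 122 TPM in controls and 115 to 124 TPM in mutants.

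Among 22 regulators of SIRT1, which include its inhibitor Ccar2 and the repressor Hic1, all 22 were tested, 0 passed and the median was -0.0040. In 1 of them, Dyrk3, every mutant was above every control, which 1.63% of all tested genes show. Dyrk3, named after its values were seen, was low, at 1.35 to 1.57 TPM in controls and 1.61 to 2.10 TPM in mutants. Its log2 fold change was 0.20 (limma adjusted p = 0.841). Kdm1a, a histone demethylase found with SIRT1 in repressor complexes, was at 0.070 in log2 fold change (adjusted p = 0.892). Csnk2a1, for a catalytic subunit of casein kinase 2, which phosphorylates SIRT1, ranged from 28.3 to 73.6 TPM within the controls and from 43.9 to 73.7 TPM within the mutants, a spread far wider than that of any member (adjusted p = 0.894). Of 30 SIRT1 substrates and partner factors 28 were tested, 0 passed and the median was -0.014. In this list Tfam, for the mitochondrial DNA packaging factor, held 25.0, 24.6, 25.3 and 24.8 TPM in controls and 27.8, 26.3, 27.0 and 27.1 TPM in mutants, every mutant above every control, at a log2 fold change of 0.12 (limma adjusted p = 0.780). Foxo3, a transcription factor that SIRT1 deacetylates, was at 0.070 too (adjusted p = 0.896).

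Of 26 substrates of the mitochondrial sirtuins 23 were tested, 0 passed and the median was -0.0054. Ppif, for the permeability-transition regulator cyclophilin D, was at 0.082 and Acadvl, for the very-long-chain acyl-CoA dehydrogenase, at -0.11 in log2 fold change (adjusted p = 0.841 for both). The list of substrates and partners of SIRT2, SIRT6 and SIRT7 had 21 tested genes, 0 past the threshold and a median of 0.041, with 16 above zero and 5 below. Its leading members were Nop56, a box C/D snoRNP protein, at -0.082 (adjusted p = 0.809), and Kmt5a, a histone H4 methyltransferase, at 0.097 (adjusted p = 0.858). Of 30 genes for RPS19 and the small-subunit processome, the nucleolar particle that matures 18S ribosomal RNA, all were tested and 0 passed, with a median of 2.4e-05. Rps19 itself, the partner of AROS and named here for that, had the lowest log2 fold change of the list, -0.30 (SE 0.24, limma adjusted p = 0.908). It held 1056, 976, 988 and 924 TPM in controls and 1013, 925, 431 and 1022 TPM in mutants. Mutant replicate 3 thus stood far below the other 7. It was also the lowest for Rps19bp1, Sirt2 and Sirt6, but the highest for Sirt7, Atf4 and Nampt. For Sirt1, Sirt3, Sirt4 and Sirt5 it was neither. Reads of ribosomal protein genes can be shared with processed pseudogenes, so these levels are uncertain. Rps28 was at -0.14 (adjusted p = 0.800), and Rrp9, for a U3 snoRNP protein, at 0.12 (adjusted p = 0.809).

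The zinc-dependent histone deacetylases, some of which share the deacetylation of lysine with sirtuins, need no NAD+ and served as an outside family. All 11 were tested, 0 passed, 8 were below zero and 3 above, and the median log2 fold change was -0.11. Hdac7, a class IIa enzyme of endothelial and muscle cells, was measured at 28.1, 34.7, 35.2 and 41.9 TPM in the controls and at 14.1, 17.9, 27.7 and 19.8 TPM in the mutants, every mutant below every control, which 2.05% of all tested genes show. Its log2 fold change of -0.81 (SE 0.18, unadjusted p of 0.00141) had a limma adjusted p of 0.573. Hdac2, a class I enzyme and the most abundant of the family, held 136 ± 4.08 TPM in controls and 143 ± 5.57 TPM in mutants (SD, n = 4 each, adjusted p = 0.843).

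**Figure D5:**
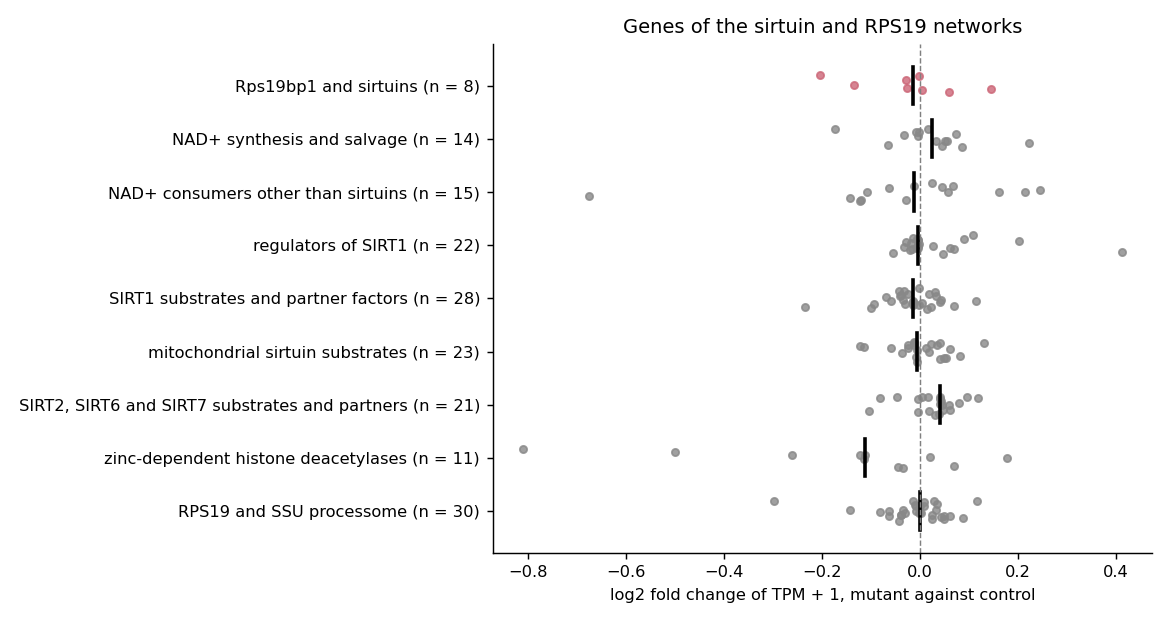
Log2 fold change of TPM + 1 (mutant against control) of every tested gene in 8 lists around the sirtuins and RPS19, with Rps19bp1 and the sirtuins in red at the top. Black ticks are list medians, between -0.11 for the zinc-dependent deacetylases and 0.041 for partners of SIRT2, SIRT6 and SIRT7. No point shown passed the threshold over all genes.

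The tissue label was checked on lists of cell type markers. The 11 ventricular cardiomyocyte markers were all expressed, with Myl2 at 10631 to 11979 TPM, and their median log2 fold change was -0.0092. Of 11 cortical neuron markers 1 reached the filter, Tubb3, and Neurod6 was listed at 0 in all 8 libraries. All 7 tested macrophage markers had log2 fold changes below zero (median -0.60, 0 of 7 past the threshold), and their summed level was 16.7 to 27.0 TPM in controls and 9.86 to 15.6 TPM in mutants. Of 10 erythroid markers 9 were below zero (median -0.34, 0 past the threshold), with sums of 4688 to 7993 and 4378 to 6093 TPM. The part of these cell types in the values of Sirt5, Sirt7, Nampt, Cd38 and Hdac7 was not tested, and in bulk tissue fewer cells of a type and less RNA per cell cannot be told apart. The other lists had medians of -0.018 for atrial (5 of 6 tested), -0.013 for endocardial and endothelial (9 of 9), -0.061 for epicardial (6 of 6) and 0.025 for valve and outflow mesenchyme markers (7 of 7), with 0 genes past the threshold in each, and 1 of 5 hepatocyte markers reached the filter.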

How the data were processed

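The authors deposited 1 table of TPM values with a column per library, the unit being taken from the table's name and from column sums between 923473 and 949762. The submitters' processing notes name GRCm38, Trim Galore 0.6.7, HISAT2 2.2.1, StringTie 2.2.1, FastQC, featureCounts and DESeq2, with no role or order, so the program behind the TPM, its annotation and its strand setting are not given in the sources used here. Start and end of all 9 genes named first (the members and Atf4) were identical to RefSeq on GRCm38.p6, and coordinates are counted from 1. Depth is unknown.

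The filter kept a gene where 4 or more of the 8 libraries reached 1 TPM. Log2(TPM + 1) was fitted in limma 3.58.1 (R 4.3.3) with a variance trend and no covariate, and two-sided p-values were adjusted over all 15545 genes at 0.05. The fit was tested on simulated data. Exact permutation used all 70 assignments, with a smallest p of 0.0286. Python 3.11.15 with numpy 2.4.6, scipy 1.17.1, pandas 2.3.3 and matplotlib 3.10.9 was used otherwise. Exon and coding lengths are from GENCODE M21 and upstream sequences from RefSeq. Of the list genes 1 symbol, Polr1g, was not matched.

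The members and lists were chosen with earlier results of these data known. The genes named are the members, Atf4, the tested genes around Rps19bp1, in each list the genes past the threshold and the 2 with the smallest p at a mean of at least 5 TPM, and the 3 genes most like Rps19bp1 and Sirt1. Features that overlap a sirtuin or end within 1000 bases of its start were examined, and others were named after their values were seen. The alternatives were another pseudocount, filter, scaling or variance model, the replicate number as a block, and each library left out.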

Additional observations from a re-analysis of the deposited data

Results flagged for a closer look

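For the 8 members and Atf4, each genotype was searched for a lone high or low library by Dixon's gap test, 18 groups of 4 libraries in all. Chance marks about 1 group in 20, or 0.9 of 18, and 1 was marked. In Sirt7 the value of mutant replicate 4 was 11.3 TPM, while the remaining mutants held 14.5 to 14.9 TPM, a gap of 0.901 of the group's range. The highest Rps19bp1 value, 37.6 TPM in control replicate 1, had a gap of 0.781 of its range and was not marked.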

How the results depend on the processing

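All alternatives were planned. The number of members past the threshold was 0 in all 17. Rps19bp1 ranged from -0.17 to -0.069 in log2 fold change with a library left out and from -0.16 to -0.13 otherwise, with an adjusted p of at least 0.778. Sirt2, Sirt5 and Sirt7 also kept their sign in all 17, and Sirt5 had an unadjusted p below 0.05 in 5 of them. With a library left out, Sirt1 ranged from -0.041 to 0.035, Sirt3 from -0.064 to 0.030, Sirt4 from -0.0015 to 0.10, Sirt6 from -0.060 to 0.0044, Sirt5 from -0.29 to -0.15 and Sirt7 from 0.11 to 0.23. Sirt1 was at -0.00028 with TPM rescaled without mitochondrial and haemoglobin genes. Sirt3 was at 0.00096 with median-of-ratios scaling and at 0.0014 with quantile normalization. The r between Rps19bp1 and Sirt6 was -0.022 with group means subtracted, against 0.067. Atf4 no longer passed, at 0.57, with no filter (adjusted p of 0.354), no variance trend (0.215) and the replicate block (0.249), at 0.55 with quantile normalization (0.0611) and at 0.56 with rescaled TPM (0.0551). With a library left out Atf4 ranged from 0.51 to 0.62 and passed only without mutant replicate 4. The 6 genes past the threshold became 0 with no filter, no variance trend and the replicate block, and 0 to 3 with a library left out. They were 1 without control replicate 1, 0 without control replicate 2, 3 or 4, 2 without mutant replicate 2 and 3 without mutant replicate 1, 3 or 4. At an unadjusted p below 0.05 there were 949 of 15545 genes in the main fit. The count was 1879 of 35731 with no filter and 685 of 11684 with the filter at 5 TPM. The other alternatives gave 804 to 1037 genes. More features or fewer samples enter some of these fits, and otherwise the cause was not tested. Correlations of deviations between libraries of the same number ran from -0.082 to 0.035, so the numbers are not taken as pairs. No scaling moved the median of all genes by more than 0.1. TPM keeps no depth, so no counting error can be given.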
